A study of Bos taurus with 138 samples.

Results

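The comparison described here is the change of the whole-embryo transcriptome of cattle from the 8-cell stage to the morula. It was taken per gene between 3 libraries of 8-cell embryos (A, B and C) and 3 libraries of morulae (A, B and C), which are 6 of the 18 whole-oocyte and whole-embryo libraries and of the 138 libraries of the series. The study followed oocytes and embryos over 6 stages and sequenced, beside whole samples, RNA from sucrose gradient fractions. Both groups were Bos taurus embryos produced in vitro from slaughterhouse ovaries with the semen of 1 Holstein bull. Embryos of the best morphological grade were chosen under the microscope, all were exposed to cycloheximide before collection, and their zona pellucida was removed with protease. Each library was a pool of 20 embryos of its stage, selected from the batch that was also used for the gradients of that stage. Batch and stage therefore cannot be told apart, and the p-values measure the spread between pools, which may share a batch.

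In cattle, the embryonic genome is transcribed in earnest from the 8-cell stage onwards, while RNA stored by the oocyte is broken down. The following divisions lead to the morula, in which cells flatten against each other (compaction) and those on the outside acquire apical polarity and junctions. Outer cells go on to form the trophectoderm, the first layer of the placenta, whereas inner cells form the inner cell mass, from which the embryo proper and the hypoblast arise.

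Totals lay between 8818251 and 10445268 counts per library, and between 10748 and 11566 genes reached 1 CPM. CPM here is 1000000 times the count of a gene divided by the library total after scaling with TMM factors, so that it gives a share of the RNA of an embryo and not an amount per embryo. In such pools, fewer cells of a type and less RNA per cell cannot be told apart. On log2(CPM + 1) over the tested genes, Pearson's r was 0.975 to 0.981 among the 3 morula libraries and 0.978 between 8-cell B and C. 8-cell A stood apart, with r of 0.94 and 0.949 to its fellow libraries and of 0.802 to 0.812 to the morulae, to which 8-cell B and C had r of 0.854 to 0.867. It was the library with the highest level for 35 of 41 mesenchymal and matrix genes and for 17 of 26 cumulus and granulosa markers. Summed over these lists, 8-cell A held 23382 and 11837 CPM, against 4771 and 2448 CPM in 8-cell B, 4396 and 1885 CPM in 8-cell C, and at most 2562 and 350.3 CPM in a morula library. Calls were therefore also made without 8-cell A. The 24 named genes that lost their call without it are given as such below, and the other named calls held.

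Of 16706 genes in the deposited table, 11642 passed the filter on low counts and were tested. A gene was called where edgeR's quasi-likelihood test gave an adjusted p below 0.05 and the fold change was above 2. By this rule, 1498 genes (12.9% of those tested) were higher and 2027 genes (17.4%) lower in morulae. The median log2 fold change of all tested genes, coded as morula minus 8-cell throughout, was -0.04. The calls were of unequal size: 245 genes rose and 654 fell by more than 8-fold. No read was counted in any morula library for 42 of the genes that fell, whereas 14 of the genes that rose had no read in any 8-cell library. The levels of the 2 stages did not overlap for 3485 of the 3525 called genes, nor for 53.4% of all tested genes.

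Without 8-cell A, 1760 of 11962 tested genes (14.7%) were higher and 2075 (17.3%) were lower in morulae. Among the 3525 genes called with 6 libraries, 3180 (90.2%) were called in the same direction without 8-cell A, and none was called in the opposite direction. These 3180 make up 82.9% of the calls made without that library. Of the 345 calls that were lost, 113 were rises and 232 were falls. Adjusted p stayed below 0.05 for 138 of them, whose fold change no longer exceeded 2. A further 655 genes were called only when 8-cell A was left out, 375 higher and 280 lower in morulae.

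**Figure D1:**
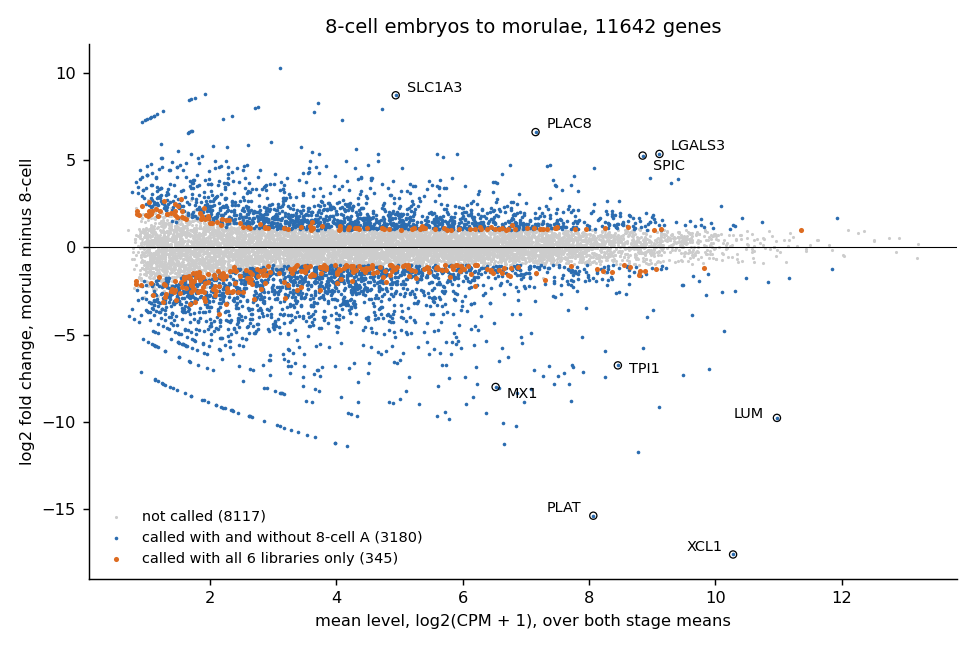
Each point is 1 of the 11642 tested genes, placed by the mean of its stage means on a log2(CPM + 1) scale and by its fitted log2 fold change from 8-cell embryos to morulae. Blue points were called with and without 8-cell A (3180 genes), orange points with all 6 libraries only (345 genes), and grey points were not called; the straight rows of points at the lower and upper left are genes with no or few reads in a stage, whose fitted fold change is no bound.

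The genes with the largest rises, among those that reached 20 CPM in morulae and held without 8-cell A, had few reads at the 8-cell stage. SLC1A3, a glutamate transporter of the plasma membrane, was counted at 0.0948, 0.3 and 0 CPM in 8-cell embryos and 69.8, 63.9 and 44.2 CPM in morulae. Its log2 fold change was 8.71 ± 0.55 (SE, adjusted p = 2.4e-05). PLAC8, named for its abundance in placenta, gave 1.61, 2.8 and 4.24 CPM in 8-cell embryos and 328, 231 and 281 CPM in morulae. All 3 morula pools thus lay far above each 8-cell pool, and the log2 fold change of PLAC8 was 6.6 ± 0.36 (SE), or 6.31 without 8-cell A (adjusted p = 1.46e-07).

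Several of these strong risers code for receptors, channels and transporters. FLT3, a receptor tyrosine kinase best known from blood progenitors, was counted at 0, 0.6 and 0 CPM in 8-cell embryos and 63.8, 39 and 48.5 CPM in morulae (log2 fold change 7.92 ± 0.73). SLC7A4, of the family of cationic amino acid transporters, had 3 reads over the 8-cell libraries and 674 over the morulae, a ratio of 243 with a 95% counting interval of 82.9 to 1183. TRPV5, an epithelial calcium channel, gave 0.0948, 0.8 and 0.578 CPM in 8-cell embryos and 26, 22.5 and 17.7 CPM in morulae (log2 fold change 5.47 ± 0.55). The other genes of the set have varied roles. MMP12, a matrix metalloproteinase, had 2 reads in 8-cell embryos and 666 in morulae (ratio 361, interval 99.4 to 2984). FBLN2, which codes for the matrix protein fibulin 2, was counted at 0.474, 1.1 and 0.674 CPM in 8-cell embryos and 31.6, 48.1 and 30.8 CPM in morulae. RAB7B, a small GTPase of late endosomes, gave 0.569, 1.5 and 1.35 CPM in 8-cell embryos and 30.3, 41.4 and 70.6 CPM in morulae, and its fitted log2 fold change was 5.37 ± 0.47. S100A5, a calcium-binding protein, went from 1.42, 1.8 and 3.56 CPM to 84.1, 85.4 and 109 CPM. DRC3, a subunit of the regulatory complex of ciliary dynein, went from 0.19, 0 and 0.385 CPM to 27.7, 35.9 and 32.1 CPM. The adjusted p of these 10 genes was at most 0.000137 with 6 libraries. That each call held without 8-cell A, with no overlap between stages, was a condition of their choice.

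The largest fall was that of XCL1, which codes for the chemokine lymphotactin. It was counted at 2324, 2399 and 2734 CPM in the 8-cell libraries, 76869 reads in all, while no read was found in the whole morula libraries. Against a floor of 3 counts per library it was at least 7839-fold lower in morulae (adjusted p = 2.84e-06), and the level in 8-cell A was close to that in 8-cell B and C. PLAT, the tissue-type plasminogen activator, was counted at 1099.5, 274 and 231 CPM in 8-cell embryos and had no read in the whole morula libraries. Against the floor it was at least 1687-fold lower in these libraries, or at least 797-fold lower than in 8-cell B and C alone. In contrast to XCL1, the level of PLAT in 8-cell A was well above that in 8-cell B and C. Its adjusted p without that library was 1.17e-07. The fallers of this set were chosen among calls that held without 8-cell A and had no overlap between stages.

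The remaining 8 fallers shared this pattern, with 8-cell A as the highest library. POSTN, which codes for the matrix protein periostin, was counted at 2169, 139 and 328 CPM in 8-cell embryos and 0.715, 0 and 0 CPM in morulae. OLR1, a receptor for oxidised low-density lipoprotein, had 6273 reads in 8-cell embryos (461, 70.2 and 68.9 CPM) and 2 in morulae (ratio 2896, counting interval 801.5 to 23921). NDP, which codes for norrin, a ligand of the Wnt receptors, gave 449, 116 and 122 CPM in 8-cell embryos and 0, 0.489 and 0 CPM in morulae. Levels in 8-cell B and C were well above the morulae for these 3 genes too. The others had no read in any morula library. SFRP2, a secreted Wnt antagonist, was at 67, 9.1 and 12.7 CPM in 8-cell embryos, and SLC16A12, a carrier of the monocarboxylate transporter family, at 62.4, 14.8 and 11.8 CPM. TMEM200A was at 52, 31 and 19.6 CPM, TMEM54 at 55, 7.5 and 7.42 CPM and PALMD at 55.1, 4.2 and 4.33 CPM at that stage. Against the floor, these 5 genes with no reads were at least 66.9-fold (PALMD) to 108-fold (TMEM200A) lower in morulae. Over 8-cell B and C alone the bounds were 13.5-fold for PALMD, 23.5-fold for TMEM54, 34.4-fold for SFRP2, 41.9-fold for SLC16A12 and 79.7-fold for TMEM200A. All 8 falls held without 8-cell A, as the choice of the set required.

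**Figure D2:**
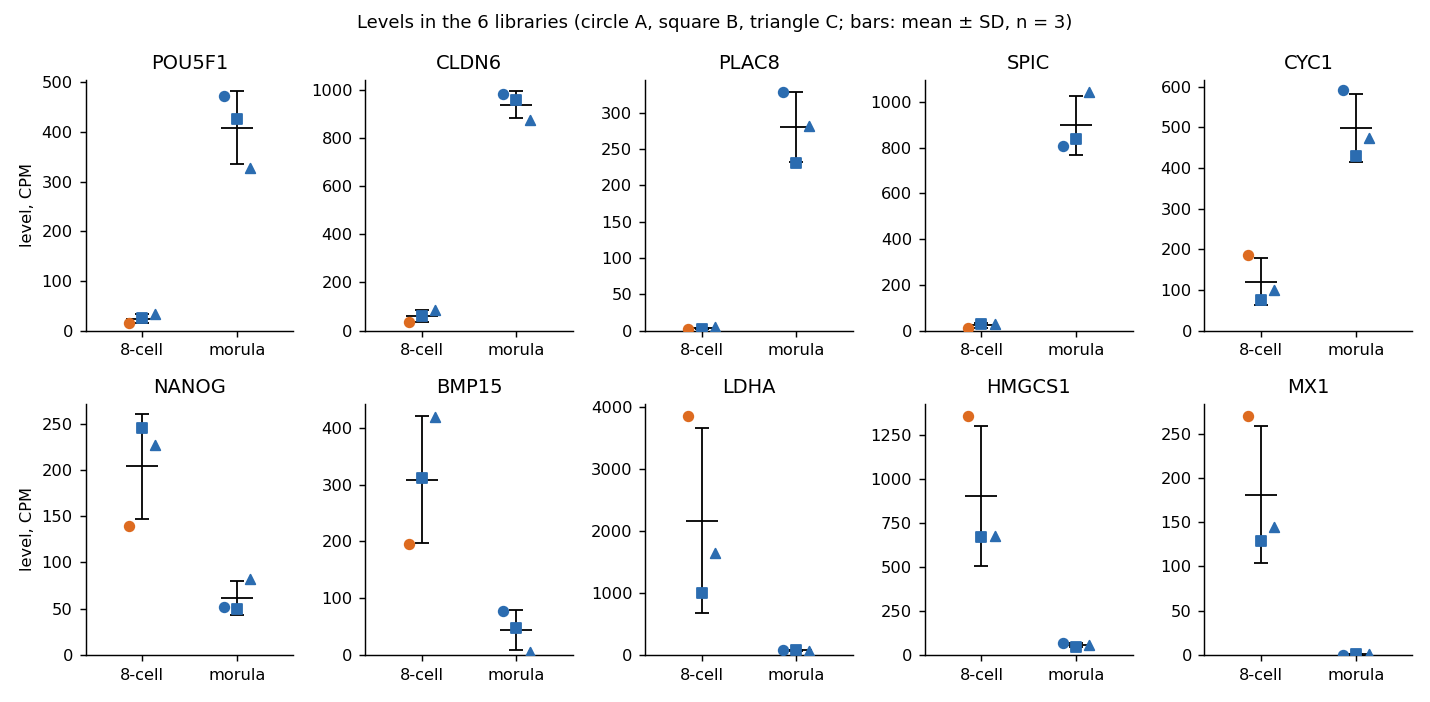
Levels in CPM on linear axes, 1 panel per gene with its own scale, in the 8-cell (left) and morula (right) libraries; circles are A, squares B and triangles C, 8-cell A is orange, and bars show the mean ± SD of 3 libraries. The stages do not overlap in any of the 10 panels, and 8-cell A lies highest of its stage for CYC1, LDHA, HMGCS1 and MX1 and lowest for POU5F1, CLDN6, PLAC8, SPIC, NANOG and BMP15.

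Genes were then read by function, in lists of known members. Each count of calls is set beside the share of all tested genes that was called in that direction, 12.9% for higher and 17.4% for lower. Counts at an unadjusted p below 0.05, given for some lists, have no such share beside them. They are therefore not to be read against all genes. Of 24 tested pluripotency factors, regulators of the inner cell mass, 12 rose (50%), 3 fell (12.5%) and 9 were not called, with a median log2 fold change of 1.49. Without 8-cell A, 13 of 26 rose and 6 fell. POU5F1 (OCT4), a core factor of pluripotent cells, was counted at 14.4, 24.4 and 34 CPM in 8-cell embryos and 472, 426 and 328 CPM in morulae. The mean of the morulae was 16.8 times that of the 8-cell embryos, with a log2 fold change of 4.07 ± 0.33 (SE, adjusted p = 5.07e-05), and of 3.81 without 8-cell A (adjusted p = 1.26e-06). NANOG, the partner of POU5F1 in that network, moved the other way, from 139, 245 and 227 CPM to 51.8, 49.4 and 82.6 CPM (log2 fold change -1.74 ± 0.28, adjusted p = 0.00138). The fall of NANOG was -1.94 without 8-cell A (adjusted p = 5.84e-05). Thus the core factors did not move together, and in neither gene did the stages overlap.

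SPIC, an ETS family factor, was counted at 10.9, 30.5 and 29.3 CPM in 8-cell embryos and 808, 839 and 1044 CPM in morulae (log2 fold change 5.25 ± 0.40). OTX2, a homeobox factor active in early epiblast that is also on the oocyte list, rose from 1.8, 4.3 and 2.41 CPM to 129, 92.7 and 125 CPM (log2 fold change 5.35 ± 0.36). With scaling over all 18 whole libraries, OTX2 had a mean of 2.76 CPM in GV oocytes and 1.76 CPM in MII oocytes. TFCP2L1, a factor of the naive state, was at 0, 0 and 0.482 CPM in 8-cell embryos and 3.47, 5.38 and 2.46 CPM in morulae, and its rise was called (adjusted p = 0.00573). KLF17, a zinc finger factor of early embryos, fell from 225, 312 and 450.2 CPM to 102, 142 and 146 CPM (log2 fold change -1.34 ± 0.27). MYC fell from 14.1, 20.1 and 17.4 CPM to 1.84, 2.83 and 3.75 CPM (log2 fold change -2.62 ± 0.38). KLF4 was not called, at 116, 219 and 143 CPM in 8-cell embryos and 177, 181 and 178 CPM in morulae, where the ranges overlapped. All calls of these genes held without 8-cell A. ESRRB, an orphan nuclear receptor of the naive network, was counted at 23.8, 64.3 and 53.4 CPM in 8-cell embryos and 99.4, 125 and 94.5 CPM in morulae and was called with 6 libraries (log2 fold change 1.17 ± 0.33) but not without 8-cell A (0.86, adjusted p = 0.00557). Without 8-cell A the list had 13 rises and 6 falls among 26 tested members.

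The trophectoderm list had the largest share of rises of the 29 lists. Of 29 tested regulators and cytoskeletal genes of this layer, 18 rose (62.1%) and 2 fell (6.9%), and the median log2 fold change was 2.11. All 18 rises and both falls held without 8-cell A, where 19 of 34 tested members rose and 5 fell. The best known regulators of the layer were among the rises. CDX2, a homeobox factor of the trophectoderm, was counted at 0.759, 0.4 and 0.771 CPM in 8-cell embryos and 4.39, 4.2 and 1.29 CPM in morulae (log2 fold change 2.34 ± 0.64, adjusted p = 0.0168). GATA3 went from 3.04, 3.3 and 4.82 CPM to 9.39, 12.7 and 7.74 CPM (log2 fold change 1.42 ± 0.38), and GATA2 from 2.37, 3.3 and 6.17 CPM to 14.4, 18.8 and 8.91 CPM (1.83 ± 0.45). HAND1, a factor of trophoblast giant cells in the mouse, had 2 reads in 8-cell embryos and 78 in morulae (ratio 42.2, counting interval 11.3 to 355). For these factors the morulae lay above the 8-cell embryos, although the calls of CDX2, GATA3 and GATA2 were lost without other single libraries, as given below.

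Structural and surface genes of this list rose too. LGALS3, which codes for the sugar-binding protein galectin 3, was counted at 45.1, 15.2 and 19.3 CPM in 8-cell embryos and 1172, 1109.8 and 959.8 CPM in morulae (log2 fold change 5.35 ± 0.42, and 5.97 without 8-cell A). MSX2, a homeobox factor, rose from 1.14, 0.9 and 1.16 CPM to 33.4, 39.9 and 25 CPM. Keratin 18 (KRT18), an intermediate filament of simple epithelia, rose from 8.35, 12.6 and 4.82 CPM to 96.4, 141 and 29.1 CPM, with morula C well below its fellow libraries. Its partner keratin 8 (KRT8) was not called, at 127, 61.5 and 68.7 CPM in 8-cell embryos and 119, 157 and 27.9 CPM in morulae (adjusted p = 0.741), and its ranges overlapped. The pair of falls were ID2, an inhibitor of basic helix-loop-helix factors, which went from 309, 386 and 315 CPM to 78.5, 97 and 91.1 CPM (log2 fold change -1.92 ± 0.19), and TFAP2B, which went from 5.88, 5.8 and 10.2 CPM to 2.86, 1.27 and 0.234 CPM (-2.3 ± 0.68).

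Genes of compaction and cell junctions followed the same direction. Of 48 tested members, 22 rose (45.8%) and 4 fell (8.33%), with a median log2 fold change of 1.0, and 21 of the rises and all 4 falls held without 8-cell A. CLDN6, a claudin of tight junctions, was counted at 35.4, 59 and 86.8 CPM in 8-cell embryos and 982, 959 and 877 CPM in morulae (log2 fold change 3.96 ± 0.32, adjusted p = 5.07e-05). CLDN4 rose from 0.0948, 0.6 and 1.45 CPM to 15.7, 10.8 and 14.1 CPM, and CLDN7 from 0.0948, 0 and 0.289 CPM to 11.5, 2.15 and 1.88 CPM. All 3 claudins thus rose. DSP, which codes for desmoplakin of the desmosome, rose from 1.42, 3.2 and 1.06 CPM to 14.1, 6.84 and 8.32 CPM (2.36 ± 0.52).

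The adhesion protein of compaction itself changed less. CDH1 (E-cadherin) was counted at 168, 279 and 284 CPM in 8-cell embryos and 598, 492 and 534 CPM in morulae, without overlap. Its log2 fold change was 1.15 ± 0.23 (SE, adjusted p = 0.00382) with 6 libraries, and 0.95 without 8-cell A (adjusted p = 0.00122), just under the fold limit. Its partner CTNNB1 (beta-catenin) was not called, at 195, 73.8 and 85.5 CPM in 8-cell embryos and 82.3, 96.9 and 149.9 CPM in morulae. TJP1 (ZO-1), a scaffold of tight junctions, was not called either, at 13.4, 19.6 and 19.8 CPM in 8-cell embryos and 22.9, 26.2 and 24.7 CPM in morulae (adjusted p = 0.176). The 4 falls were in gap junctions and desmosomes. GJA1 (connexin 43) went from 165, 63.4 and 55.1 CPM to 3.27, 3.42 and 7.85 CPM (log2 fold change -4.29 ± 0.53), with 8-cell A the highest library. GJC1, another connexin, went from 16.5, 14.1 and 23.4 CPM to 7.55, 5.08 and 3.98 CPM (-1.7 ± 0.36). The desmosomal cadherins DSC2 and DSC3 fell from 15.9, 13 and 20.1 CPM to 1.84, 2.64 and 4.34 CPM and from 13.4, 29.2 and 31.7 CPM to 2.14, 4.99 and 10.4 CPM.

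**Figure D3:**
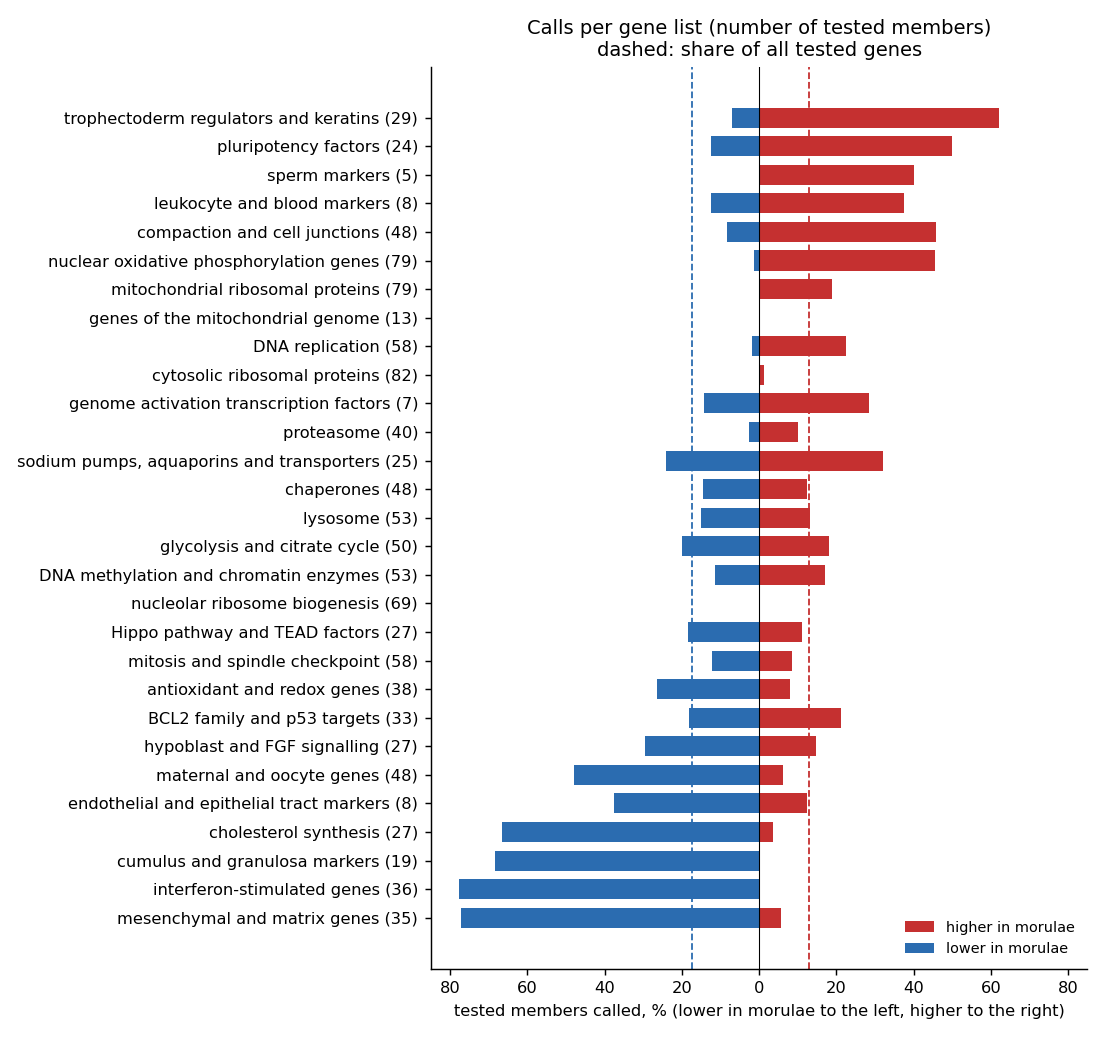
For each of the 29 gene lists, the bar to the right gives the share of tested members called higher in morulae and the bar to the left the share called lower, in percent, with the number of tested members in brackets and lists ordered by median log2 fold change. Dashed lines mark the shares over all tested genes (12.9% higher, 17.4% lower); trophectoderm, pluripotency, junction and nuclear oxidative phosphorylation genes, and the short sperm and leukocyte marker lists, reach far right of the line, and matrix genes, interferon-stimulated genes, cumulus markers and cholesterol synthesis far left.

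Hypoblast and FGF signalling genes were divided. Of 27 tested, 4 rose (14.8%) and 8 fell (29.6%), with a median log2 fold change of -0.57, and the list had 7 calls in each direction without 8-cell A. GATA6, a regulator of the hypoblast, rose from 8.25, 4.9 and 8.77 CPM to 41.2, 31.7 and 21.8 CPM (log2 fold change 2.11 ± 0.35). The FGF receptors FGFR4 and FGFR3 rose from 1.9, 1.3 and 4.91 CPM to 40.3, 48.5 and 37.5 CPM and from 0.664, 1.4 and 0.771 CPM to 12, 10.2 and 6.92 CPM. RSPO3, a secreted enhancer of Wnt signals, rose from 5.88, 5.4 and 6.17 CPM to 81.5, 69.3 and 49 CPM (3.52 ± 0.28). These 4 rises were at least 4-fold and held without 8-cell A. The ligand FGF4 had 27 reads over the morulae and none in 8-cell embryos. It did not pass the filter with 6 libraries and was called without 8-cell A (adjusted p = 0.0129). SOX17 had 16 reads in morulae and none in 8-cell embryos, and was not tested. PDGFRA was not called, at 202, 110.0 and 141 CPM in 8-cell embryos and 92.8, 93.6 and 103 CPM in morulae.

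The falls named from this list were of secreted proteins, with 8-cell A as the highest library. APOA1, an apolipoprotein, was counted at 1025, 269 and 126 CPM in 8-cell embryos and 1.43, 7.63 and 0.703 CPM in morulae. LAMA1, a laminin chain of basement membranes, went from 114, 17.6 and 28.9 CPM to 1.84, 3.32 and 0.703 CPM, and APOE from 21.9, 5.2 and 5.97 CPM to 1.33, 2.64 and 0.469 CPM. SPARC, a matrix glycoprotein, was counted at 4502, 1014 and 953 CPM in 8-cell embryos and 434, 396 and 332 CPM in morulae, and its log2 fold change moved from -2.48 ± 0.54 to -1.34 without 8-cell A. These 4 falls held without that library. The level of the matrix gene list moved with them, as given above, and its part in the result was not tested.

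Few genes of the Hippo pathway, which separates outer from inner cells, were called. Of 27 tested, 3 rose (11.1%) and 5 fell (18.5%), shares close to those of all genes. YAP1, the coactivator, was not called (5.97, 3.8 and 3.56 CPM in 8-cell embryos and 4.8, 4.79 and 5.51 CPM in morulae), nor was its partner TEAD4 (10.8, 13.9 and 30.5 CPM in 8-cell embryos and 42.3, 33.9 and 22.5 CPM in morulae) or the scaffold AMOT (3.41, 7.8 and 7.13 CPM in 8-cell embryos and 10.7, 13.4 and 7.62 CPM in morulae). LATS2, the kinase that inhibits YAP1, fell from 16.6, 28.2 and 13.6 CPM to 7.04, 4.4 and 7.85 CPM (log2 fold change -1.6 ± 0.38), and the kinase STK4 fell from 49.8, 81.2 and 69.3 CPM to 39.9, 23.7 and 20.4 CPM (-1.25 ± 0.30). FRMD6, an upstream scaffold, fell from 21.2, 27.5 and 23.2 CPM to 3.57, 6.65 and 6.8 CPM (-2.08 ± 0.34). Rises were seen in AMOTL2 (10.5, 4.0 and 5.68 CPM in 8-cell embryos and 15.8, 17.6 and 19.2 CPM in morulae) and NF2 (9.2, 7.5 and 8.86 CPM in 8-cell embryos and 26.3, 17.1 and 13.8 CPM in morulae), and these 5 calls held without 8-cell A. WWTR1 (TAZ), from 20.2, 31.9 and 27.2 CPM to 51.5, 64.1 and 53.8 CPM, and the YAP1 target CCN2, from 288, 72.2 and 108 CPM to 43.5, 71.9 and 41 CPM, were called with 6 libraries only. Without 8-cell A their log2 fold changes were 0.94 and -0.79.

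Pumps, water channels and carriers are used later to fill the blastocoel. Of 25 tested, 8 rose (32%) and 6 fell (24%), and all 14 calls held without 8-cell A. AQP3, a water and glycerol channel, rose from 7.68, 16.4 and 28.3 CPM to 67.8, 87 and 59 CPM (log2 fold change 2.03 ± 0.41). SLC2A5, a fructose carrier, was counted at 21, 44.9 and 58.9 CPM in 8-cell embryos and 327, 192 and 353 CPM in morulae (2.81 ± 0.38). FXYD4, a regulator of the sodium pump, rose from 1.52, 8.7 and 4.62 CPM to 27.6, 51.7 and 33 CPM, and SLC9A3R1, an apical scaffold, from 3.13, 1.3 and 4.33 CPM to 46.6, 50 and 29.3 CPM. The sodium channel subunit SCNN1A rose from 0.19, 0.3 and 0.674 CPM to 4.59, 2.54 and 1.99 CPM. These risers belong to the apical and basolateral membranes of epithelia. ATP1B1, the beta subunit of the sodium pump, fell from 142, 46.4 and 74.9 CPM to 10.4, 22.9 and 9.49 CPM (-2.62 ± 0.46). FXYD5 fell from 34.1, 18.2 and 17.1 CPM to 0.306, 0.978 and 0 CPM, and the aquaporin AQP11 from 108, 193 and 166 CPM to 23.9, 33.9 and 48.2 CPM. SLC16A3, a lactate carrier, had 177 reads in 8-cell embryos and 2 in morulae (ratio 81.7, counting interval 22.3 to 680.1). The glucose carrier SLC2A1 was not called with 6 libraries (98.9, 27.9 and 40.9 CPM in 8-cell embryos and 60.6, 106 and 59.7 CPM in morulae) but was without 8-cell A (1.14, adjusted p = 0.00876).

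Genes of the oocyte's store fell more often than they rose. Of 48 tested maternal and oocyte genes, 23 fell (47.9%) and 3 rose (6.25%), with a median log2 fold change of -1.24. All 23 falls held without 8-cell A, where 26 members fell. GDF9, a growth factor secreted by oocytes, was counted at 41.9, 32.6 and 133 CPM in 8-cell embryos and 4.39, 5.57 and 1.64 CPM in morulae (log2 fold change -4.14 ± 0.62, adjusted p = 0.000872). Its relative BMP15 went from 195, 312 and 419.5 CPM to 76.6, 47.2 and 5.98 CPM (-2.83 ± 0.68), and BTG4, an adaptor of maternal mRNA decay, from 1196, 1514 and 2079 CPM to 482, 235 and 16.2 CPM (-2.71 ± 0.84). In BMP15 and BTG4 the 3 morula pools differed widely, with morula C lowest and morula A highest. MOS, the kinase that holds oocytes at metaphase, fell from 32.2, 62.1 and 67.5 CPM to 15.5, 6.26 and 3.4 CPM. WEE2, an oocyte kinase, fell from 30.2, 50.3 and 52.9 CPM to 4.9, 1.96 and 0.821 CPM, and NLRP8 from 62.5, 91.1 and 82.6 CPM to 3.57, 1.66 and 2.81 CPM. ZP4 and ZP3 of the zona pellucida fell from 36.9, 23 and 61.9 CPM to 2.14, 3.03 and 2.58 CPM and from 11.8, 8.7 and 8.57 CPM to 5.61, 3.23 and 3.75 CPM. NLRP5 was not called, at 3.23, 4.0 and 2.41 CPM in 8-cell embryos and 1.74, 0.391 and 1.88 CPM in morulae. Besides OTX2, the rises were small: DDX4, a germ cell helicase, was counted at 2.56, 3.8 and 3.37 CPM in 8-cell embryos and 3.78, 11.5 and 13.2 CPM in morulae, with overlap, and TLE6 at 0.948, 2.7 and 1.73 CPM in 8-cell embryos and 6.23, 4.11 and 4.34 CPM in morulae, a call that was lost without 8-cell A (adjusted p = 0.0733).

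Of 32 transcription factors of genome activation that were listed, 10 had a row in the table and 7 were tested. DPPA2 and DPPA4, partners that open chromatin at early genes, rose from 98.8, 174 and 141 CPM to 448, 373 and 469 CPM and from 61, 117 and 91.5 CPM to 258, 259.9 and 323 CPM (log2 fold changes 1.64 ± 0.23 and 1.64 ± 0.25), and both calls held without 8-cell A. KLF17 fell, as given above. ZSCAN4, which is expressed in bursts in early embryos, was not called, at 26.5, 74.2 and 30.2 CPM in 8-cell embryos and 44.2, 88.2 and 77.6 CPM in morulae.

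Most interferon-stimulated genes fell. Of 36 tested, 28 fell (77.8%) and none rose by edgeR's quasi-likelihood test, and the median log2 fold change was -3.68. All 28 falls held without 8-cell A, where 29 of 36 fell and again none rose. At an unadjusted p below 0.05, 1 member was higher and 30 were lower, and both the likelihood ratio test and DESeq2 called 29 lower and 0 higher. Summed over the list, levels were 7454, 4290 and 4079.8 CPM in 8-cell embryos and 510.2, 618 and 504 CPM in morulae. IFI6 was counted at 2168, 1159 and 933 CPM in 8-cell embryos and 0.613, 25 and 0.703 CPM in morulae (log2 fold change -7.32 ± 1.22). MX1, a GTPase that blocks viruses, went from 270.1, 128 and 145 CPM to 0.102, 1.37 and 0.586 CPM (-8.0 ± 0.59, adjusted p = 4.57e-05). ISG15, a ubiquitin-like modifier, was counted at 136, 139 and 160.2 CPM in 8-cell embryos and 0.51, 2.93 and 0.117 CPM in morulae, and IFITM1, an antiviral membrane protein, at 446, 316 and 387 CPM in 8-cell embryos and 2.14, 4.69 and 0.938 CPM in morulae. In ISG15 and IFITM1, 8-cell A lay within or close to the range of 8-cell B and C. Leukocyte and blood markers were low in both stages, at a sum of 107 to 132 CPM in 8-cell embryos and 189.8 to 218 CPM in morulae, and PTPRC (CD45), their defining surface protein, was at 0.379, 0.3 and 0.0963 CPM in 8-cell embryos and 0, 0.391 and 0.117 CPM in morulae. The cumulus and matrix lists, given above by library, were lower in morulae as well, and their part in the fall of these genes was not tested.

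Genes of energy metabolism were called in both directions. Of 50 tested genes of glycolysis and the citrate cycle, 9 rose (18%) and 10 fell (20%), shares not far from those of all genes. Glycolytic enzymes were among the falls. LDHA, which turns pyruvate to lactate, was counted at 3852, 997 and 1645 CPM in 8-cell embryos and 84.4, 78 and 67.4 CPM in morulae (log2 fold change -4.82 ± 0.48, adjusted p = 0.000129). TPI1, which converts the triose phosphates, went from 1221, 381 and 482 CPM to 2.45, 11.2 and 5.39 CPM (-6.76 ± 0.66), ENO1 from 2829.7, 679.7 and 949.9 CPM to 105, 112 and 84 CPM (-3.88 ± 0.50), and PKM from 635, 233 and 266 CPM to 62.8, 86.6 and 51.8 CPM (-2.49 ± 0.39). 8-cell A was the highest library for all 4, and without it their log2 fold changes were -4.11, -6.07, -3.02 and -1.89, each still called. The matrix and cumulus lists were highest in the same library, and their part in these falls was not tested. PFKP fell from 16.5, 3.5 and 5.2 CPM to 0.51, 0.684 and 0.586 CPM, and HK2, the kinase at the entry of glycolysis, was not called (48.9, 82.8 and 65.6 CPM in 8-cell embryos and 43.3, 60.4 and 59.1 CPM in morulae).

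Among the rises were enzymes that turn pyruvate into acetyl-CoA. The subunits PDHB and PDHA1 of pyruvate dehydrogenase went from 174, 134 and 128 CPM to 518, 662 and 527 CPM and from 72.9, 81 and 50.6 CPM to 173, 242 and 177 CPM (log2 fold changes 1.97 ± 0.21 and 1.53 ± 0.24). IDH1, an isocitrate dehydrogenase, was counted at 198, 119.9 and 226 CPM in 8-cell embryos and 674, 631 and 552 CPM in morulae, and RPIA, of the pentose phosphate pathway, at 223, 307 and 275 CPM in 8-cell embryos and 713, 784 and 697 CPM in morulae. These 4 rises held without 8-cell A. In sum, the list held 25434, 11616 and 13421 CPM in 8-cell A, B and C and 13114 to 13686 CPM in morulae, so that the level in 8-cell A was 2.03 times the mean of 8-cell B and C. Of the 9 rises and 10 falls, 8 and 7 held without it.

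Many nuclear genes of oxidative phosphorylation rose. Of 79 tested, 36 rose (45.6%) and 1 fell (1.27%), with a median log2 fold change of 0.97. For 69 of 79 the 3 morulae lay above the 3 8-cell pools, against 3002 of all 11642 tested genes. Summed, they held 21790 to 26141 CPM in 8-cell embryos and 41434 to 44931 CPM in morulae. CYC1, cytochrome c1 of complex III, was counted at 185, 76.2 and 98.8 CPM in 8-cell embryos and 590.4, 428 and 474 CPM in morulae (log2 fold change 2.05 ± 0.32). UQCRC1 of the same complex rose from 116, 65.2 and 70.9 CPM to 278, 210.5 and 178 CPM, NDUFA7 of complex I from 62, 65.1 and 72.2 CPM to 237, 187 and 222 CPM, and the ATP synthase subunits ATP5F1A and ATP5MF from 1131, 546 and 603 CPM to 1769.5, 1762 and 1807 CPM and from 215, 309 and 255 CPM to 872, 686 and 804 CPM. ATP5MPL rose from 58.4, 89.9 and 71.9 CPM to 284, 271 and 292 CPM. The rises thus touched several complexes, and 32 of the 36 held without 8-cell A, those named here among them. COX4I1 and NDUFS1 were not called (508, 416 and 372 CPM in 8-cell embryos and 781, 719 and 577 CPM in morulae; 191, 142 and 135 CPM in 8-cell embryos and 214, 186 and 235 CPM in morulae). The single fall was COX7A1, the heart and muscle isoform of a complex IV subunit, from 22.8, 12.3 and 15 CPM to 0.408, 0.0978 and 0 CPM.

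None of the 13 protein-coding genes of mitochondrial DNA was called by edgeR's quasi-likelihood test with or without 8-cell A, nor by the likelihood ratio test or DESeq2, while 5 were higher and 0 lower at an unadjusted p below 0.05. Their median log2 fold change was 0.51. ND1 was counted at 2866, 4076 and 3355 CPM in 8-cell embryos and 3922, 3154 and 4007 CPM in morulae, COX1 at 12175, 11263 and 10136 CPM in 8-cell embryos and 7928, 9695 and 4761 CPM in morulae and CYTB at 4274, 6377 and 4741 CPM in 8-cell embryos and 7115, 6528 and 5794 CPM in morulae. ATP6 was above the 8-cell range in all morulae (4709.9, 7514 and 6585 CPM in 8-cell embryos and 10303, 8214 and 8976 CPM in morulae), with an adjusted p of 0.0809. Of 79 mitochondrial ribosomal proteins, 15 rose (19%) and none fell, all 15 also without 8-cell A; 48 were higher and 2 lower at an unadjusted p below 0.05. MRPS18A rose from 52.1, 47.9 and 46.3 CPM to 178, 188 and 164 CPM and MRPL54 from 22.8, 19.7 and 20.5 CPM to 79.9, 64.8 and 74.1 CPM, with MRPL43 (1.52), MRPL34 (1.46) and MRPL12 (1.1) as further examples by log2 fold change. MRPS12 was not called (0.42, adjusted p = 0.167).

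Few genes of the cytosolic protein machinery passed both limits of a call. Among 82 cytosolic ribosomal proteins, RPL30 alone was called with 6 libraries (261, 479 and 372 CPM in 8-cell embryos and 806, 738 and 734 CPM in morulae), and not without 8-cell A. RPL3 alone was called without 8-cell A, with a log2 fold change of 1.08 against 0.99 with all 6. At an unadjusted p below 0.05, 39 of them were higher and 1 lower. In 40 the 3 morulae lay above the 3 8-cell pools, against 3002 of all 11642 tested genes. The median log2 fold change of the list was 0.48, and RPLP0 (0.50) and RPS6 (-0.10) were under the limit. Ribosomal protein genes have many near-identical copies in the genome, so that their counts are uncertain. None of 69 nucleolar genes of ribosome biogenesis was called with 6 libraries by edgeR's quasi-likelihood test, the likelihood ratio test or DESeq2, and 1 fell without 8-cell A. At an unadjusted p below 0.05, 17 were higher and 6 lower. FBL (83.7, 128 and 76.8 CPM in 8-cell embryos and 199.8, 190.0 and 135 CPM in morulae) and NCL (896, 1382 and 1150.5 CPM in 8-cell embryos and 2167, 2040.2 and 1570.2 CPM in morulae) were higher in each morula library with adjusted p of 0.0222 and 0.0235, but less than 2-fold, and NOP56 had overlapping ranges (520.5, 667 and 665 CPM in 8-cell embryos and 611, 597 and 730.1 CPM in morulae). Of 40 proteasome genes, 4 rose and 1 fell, and 19 were higher and 1 lower at an unadjusted p below 0.05. PSME3, PSMG2 and PSMB2 rose with log2 fold changes of 1.73, 1.42 and 1.3, PSMC4 rose by 1.16, and the subunit PSME2 of the interferon-induced proteasome cap fell from 84.6, 48.1 and 47.3 CPM to 18.4, 22.3 and 18.6 CPM. These 5 calls held without 8-cell A. The core subunits PSMA1 and PSMB5 and the cap subunit PSMD1 were not called (log2 fold changes 0.26, 0.29 and 0.69).

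Most genes of cholesterol synthesis fell. Of 27 tested enzymes and regulators, 18 fell (66.7%) and 1 rose (3.7%), with a median log2 fold change of -1.92 (-1.54 without 8-cell A). All 19 calls held without 8-cell A. HMGCS1, which makes HMG-CoA, was counted at 1362, 672 and 679 CPM in 8-cell embryos and 65.4, 44.7 and 58.7 CPM in morulae (log2 fold change -4.01 ± 0.33, adjusted p = 5.5e-05). Further down the route, SQLE fell from 169, 70.5 and 64.8 CPM to 28.8, 22.4 and 38.7 CPM, CYP51A1 from 110.1, 42.8 and 52.3 CPM to 10.3, 4.3 and 10.1 CPM, and TM7SF2 from 74.2, 24.6 and 19.2 CPM to 1.33, 1.17 and 1.88 CPM. The exception was SCAP, the escort protein of the SREBP factors, from 6.92, 6.2 and 6.65 CPM to 19.5, 15 and 9.96 CPM (1.17 ± 0.34). 8-cell A was the highest library for the sum of the list (7366 CPM against 3846 and 3634 CPM in 8-cell B and C), which lay at 959.6 to 1307 CPM in morulae. The cumulus and matrix lists were highest in the same library and lower in morulae too, and their part in these falls was not tested.

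Chaperones were called in both directions. Of 48 tested, 6 rose (12.5%) and 7 fell (14.6%), and 6 rises and 5 falls held without 8-cell A. The mitochondrial pair HSPD1 (HSP60) and HSPE1 (HSP10) rose from 321, 250.3 and 223 CPM to 739, 825 and 634 CPM and from 130.3, 162 and 124 CPM to 462, 431 and 423 CPM. DNAJA3, a mitochondrial co-chaperone, rose from 17.8, 16 and 11 CPM to 44.3, 29.8 and 38 CPM, and the cytosolic HSPA4 from 190.5, 178 and 148 CPM to 454, 503 and 421 CPM. In the endoplasmic reticulum, HSPA5 (BiP) fell from 2061, 647 and 749 CPM to 270.2, 263 and 249 CPM (log2 fold change -2.15 ± 0.40), and PDIA4 from 72.9, 24.3 and 26.7 CPM to 9.19, 13.4 and 7.97 CPM. 8-cell A was again the highest library for both, yet the calls held without it (-1.42 and -1.32). The heat shock genes DNAJB1, HSPA1A and HSPA1L fell with log2 fold changes of -1.79, -1.45 and -2.56. HSPA1A and HSPA1L are close copies, so that reads may be shared between them.

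Redox genes were called in both directions. Of 38 tested, 3 rose (7.89%) and 10 fell (26.3%), of which 3 and 7 held without 8-cell A, where 5 rose and 7 fell in all. GLRX (glutaredoxin) rose from 72.1, 91.8 and 83.4 CPM to 505, 479.9 and 389 CPM, SOD2, the mitochondrial superoxide dismutase, from 37.4, 27 and 36.1 CPM to 141, 114 and 139.5 CPM, and PRDX2, a peroxiredoxin, from 1525, 559 and 643 CPM to 2797, 2432 and 2327 CPM. The cytosolic SOD1 was not called (891, 413 and 385 CPM in 8-cell embryos and 139.7, 478 and 242 CPM in morulae), nor were GPX4 (-0.71) and PRDX1 (-0.09). Among the falls, the endoplasmic reticulum peroxidases GPX8 and GPX7 went from 239.8, 78.1 and 83.1 CPM to 6.94, 6.26 and 2.58 CPM and from 37.6, 11.7 and 11.2 CPM to 2.25, 2.93 and 2.93 CPM. GSTA1, a glutathione transferase with close copies, varied strongly among 8-cell pools (243, 13.5 and 305 CPM) and was at 0.613, 5.28 and 0.117 CPM in morulae. GPX3 had 68 reads in 8-cell embryos and 1 in morulae (ratio 62.8, counting interval 10.9 to 2516).

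Lysosomal genes changed in single members. Of 53 tested, 7 rose (13.2%) and 8 fell (15.1%). Without 8-cell A, 15 rose and 7 fell. The protease CTSL rose from 74.3, 83.3 and 137 CPM to 838, 614 and 392 CPM (log2 fold change 2.65 ± 0.33), SMPD1 from 7.87, 4.3 and 5.49 CPM to 27.8, 35.6 and 28 CPM, and PSAP and ATP6AP1 by 1.69 and 1.81 on the log2 scale. The protease CTSK, best known from osteoclasts, fell from 245, 70.4 and 119 CPM to 5.31, 4.11 and 7.15 CPM, and ASAH1, an acid ceramidase, from 169, 90.1 and 89.4 CPM to 2.35, 9.58 and 4.22 CPM. The membrane proteins CD63 and SCARB2 fell from 1569, 664 and 624 CPM to 83.2, 93.6 and 59.4 CPM and from 118, 66.3 and 69.7 CPM to 6.23, 7.63 and 4.22 CPM. These 8 calls held without 8-cell A, while LAMP1 and CTSB were not called (0.00 and -0.22).

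Replication genes rose in part, and mitotic genes had no common direction. Of 58 tested replication genes, 13 rose (22.4%) and 1 fell (1.72%), with a median log2 fold change of 0.50. The GINS subunits of the replicative helicase, GINS1 and GINS2, rose from 160.4, 208 and 218 CPM to 712, 849.9 and 706 CPM and from 27.7, 22.2 and 27.7 CPM to 141, 100.2 and 97.5 CPM. MCM2 and MCM5 of the helicase core rose from 10.2, 9.1 and 8.77 CPM to 49.6, 36 and 24.7 CPM and from 14.8, 4.7 and 11.6 CPM to 46.6, 35.7 and 19 CPM. PCNA (1056, 1298 and 937 CPM in 8-cell embryos and 768, 897 and 853 CPM in morulae) and CDC6 (36.4, 42.8 and 65.3 CPM in 8-cell embryos and 52.9, 32.8 and 44.2 CPM in morulae) were not called. RNASEH2B was the single fall (-1.86). All 5 of these calls held without 8-cell A. Of 58 tested mitosis genes, 5 rose (8.62%) and 7 fell (12.1%), all 12 also without 8-cell A. CDC25A, a phosphatase that activates cyclin-dependent kinases, rose from 19.4, 24.5 and 32.9 CPM to 77.9, 86.4 and 59.8 CPM, whereas AURKC, the Aurora kinase of germ cells, and CDCA8 of the same complex fell from 173, 252 and 189 CPM to 49.5, 37.1 and 47 CPM and from 164, 378 and 409.7 CPM to 96.5, 75.5 and 73.1 CPM. The somatic Aurora kinase AURKB was not called (172, 256 and 189 CPM in 8-cell embryos and 162, 132 and 164 CPM in morulae), and neither were CCNB1, BUB1 and CDC20 (log2 fold changes -0.39, -0.01 and 0.51). CCND3 rose from 3.41, 1.1 and 1.73 CPM to 11.2, 11.9 and 3.75 CPM, PKMYT1 and UBE2S rose by 1.78 and 1.08, and CCND1 had 74 reads in 8-cell embryos and 1 in morulae (ratio 68.3, counting interval 11.9 to 2735).

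Among 53 tested genes of DNA methylation and chromatin, 9 rose (17%) and 6 fell (11.3%), with 8 and 6 also called without 8-cell A. DNMT3A, a de novo DNA methyltransferase, rose from 11.1, 3.8 and 8.09 CPM to 77.1, 81.7 and 72.6 CPM (log2 fold change 3.33 ± 0.36, adjusted p = 0.000185). TET1, which oxidises methylated cytosine, rose from 120.5, 272 and 228 CPM to 621, 623 and 777 CPM (1.7 ± 0.29), and TET3, the enzyme of the zygote, fell from 2.47, 1.6 and 4.05 CPM to 0.715, 0 and 0 CPM. TRIM28, a corepressor that acts at imprinted and repeated sequences, rose from 50.8, 71 and 43.1 CPM to 214, 199 and 172 CPM, and KDM2B from 1.52, 0.4 and 1.16 CPM to 12, 8.6 and 6.33 CPM. UHRF1, which guides maintenance methylation, fell from 19.2, 15.6 and 30 CPM to 10.9, 4.5 and 4.81 CPM. Its partner DNMT1 was not called (83.7, 60.7 and 71.4 CPM in 8-cell embryos and 69.4, 72.8 and 48.6 CPM in morulae), nor was DNMT3B (1.04, 3.6 and 1.06 CPM in 8-cell embryos and 3.47, 4.59 and 1.64 CPM in morulae). KDM1B, a histone demethylase of oocytes, and TDG, a DNA glycosylase, fell with log2 fold changes of -1.96 and -1.51. These 8 calls held without 8-cell A.

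In the BCL2 family and among p53 targets, 7 of 33 tested genes rose (21.2%) and 6 fell (18.2%). The effectors and sensitisers BAK1, BOK and PMAIP1 (NOXA) rose from 2.47, 1.5 and 2.41 CPM to 13.2, 12.8 and 8.21 CPM, from 1.04, 0.2 and 0.0963 CPM to 13, 5.38 and 3.52 CPM and from 6.26, 6.7 and 5.59 CPM to 24.8, 28.1 and 28.7 CPM. The inhibitor BCL2L1 rose as well, from 8.44, 7.0 and 10.6 CPM to 21.4, 25.3 and 26.1 CPM, as did the protease CASP6 (1.68 on the log2 scale). BAX and MCL1 were not called (5.03, 2.0 and 4.05 CPM in 8-cell embryos and 6.33, 9.29 and 5.86 CPM in morulae; 379.6, 229.7 and 209.7 CPM in 8-cell embryos and 271, 286 and 320.0 CPM in morulae), and BAX was without 8-cell A (1.24, adjusted p = 0.0448). CDKN1A (p21), a p53 target, fell from 29.8, 9.0 and 15.7 CPM to 3.88, 3.42 and 4.81 CPM, and the stress genes GADD45A and GADD45G fell with log2 fold changes of -1.7 and -2.21. CASP8 went from 9.48, 4.0 and 5.11 CPM to 0.102, 0.88 and 0.586 CPM. All calls given here for this list with 6 libraries held without 8-cell A.

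Markers of other cell types were counted as well, since 8-cell A stood apart in them. Of 35 tested mesenchymal and matrix genes, 27 fell (77.1%) and 2 rose (5.71%), with a median log2 fold change of -3.98. Without 8-cell A, 24 fell and 2 rose, of which 23 and 2 were called in both fits, and the median was -2.64. LUM (lumican), a proteoglycan of connective tissue that is also on the cumulus list, was counted at 8971, 1885 and 1198 CPM in 8-cell embryos and 0.306, 10.8 and 2.46 CPM in morulae. THBS1 (thrombospondin 1) went from 673, 29.2 and 46 CPM to 0.408, 0.293 and 0.938 CPM, and TAGLN (transgelin) from 406, 97.1 and 60 CPM to 0, 1.96 and 0 CPM. The collagen genes COL1A1, COL1A2 and COL3A1 went from 33.4, 7.4 and 9.73 CPM to 0.817, 1.27 and 0.703 CPM, from 210.3, 15.7 and 22.8 CPM to 2.25, 1.56 and 1.88 CPM and from 153, 17.6 and 21.6 CPM to 1.33, 0.587 and 0.938 CPM. SERPINH1, the collagen chaperone, was at 49.1, 9.6 and 15.3 CPM in 8-cell embryos and 2.65, 3.81 and 1.64 CPM in morulae. These falls held without 8-cell A, and 8-cell B and C also lay above the morulae. The 2 rises were FN1 (fibronectin), counted at 177, 37.7 and 62.5 CPM in 8-cell embryos and 1106, 1655 and 737 CPM in morulae (log2 fold change 3.66 ± 0.55), and TGFBI, from 9.39, 16 and 15 CPM to 45, 59.5 and 44.7 CPM.

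**Figure D4:**
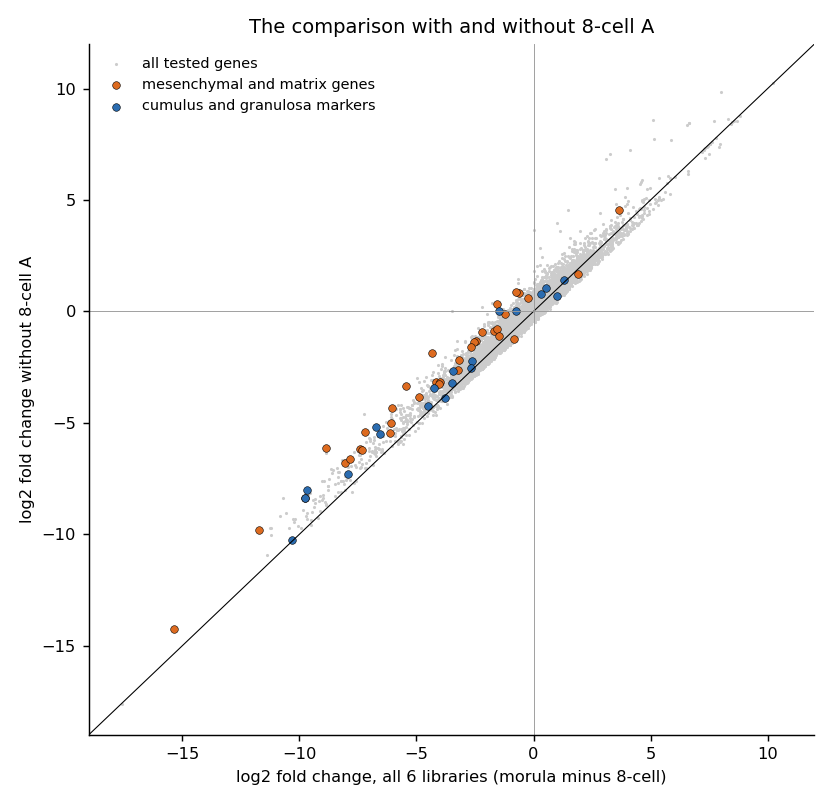
Each point is a tested gene, with its log2 fold change (morula minus 8-cell) over all 6 libraries on the horizontal axis and without 8-cell A on the vertical axis; the diagonal marks equal values. Most mesenchymal and matrix genes (orange) and several cumulus and granulosa markers (blue) lie above the diagonal on the lower left, that is, they fell less without 8-cell A, and their medians moved from -3.98 to -2.64 and from -3.47 to -3.23.

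Of 19 tested cumulus and granulosa markers, 13 fell (68.4%) and none rose, with the same 13 falls and no rise without 8-cell A. At an unadjusted p below 0.05, 2 were higher, and the likelihood ratio test called 1 and DESeq2 0 higher. PTX3 and TNFAIP6, matrix genes of the expanding cumulus, were close in all 8-cell libraries, at 16.6, 18.5 and 13.1 CPM and 26.5, 33 and 38.4 CPM. In morulae they were at 0 CPM in all 3 libraries and 2.35, 2.25 and 2.58 CPM, so that PTX3 was at least 50.7-fold lower. CYP11A1, the first enzyme of steroid synthesis, went from 162, 57 and 67.9 CPM to 0.51, 0.587 and 0 CPM, and FST (follistatin) from 224, 12.4 and 48.7 CPM to 3 reads in morulae (ratio 920, counting interval 314 to 4462). FSHR, the receptor of follicle-stimulating hormone and a defining marker of granulosa cells, was at 8.91, 2.3 and 2.02 CPM in 8-cell embryos and had 1 read in morulae (ratio 127, counting interval 22.5 to 5069). CYP19A1 (aromatase), the defining enzyme of oestrogen synthesis in these cells, was at 1.42, 1.4 and 0.867 CPM in 8-cell embryos and 1.74, 3.81 and 3.52 CPM in morulae and was not called. With PLAT and PTX3, the genes without a morula read, set to their bounds, the medians of both lists did not move.

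Fewer reads came from the other marker lists. Of 8 tested leukocyte markers, 3 rose and 1 fell. CD2 was at 0.19, 0.1 and 0.0963 CPM in 8-cell embryos and 4.9, 8.21 and 9.61 CPM in morulae. GZMB was at 0.19, 0.9 and 2.12 CPM in 8-cell embryos and 12.9, 31.9 and 16.8 CPM in morulae, and CSF1R at 3.41, 4.8 and 4.82 CPM in 8-cell embryos and 13.5, 11.6 and 11.4 CPM in morulae. These 3 rose and LCP1 fell (-3.11), while HBB (beta-globin) was at 0.284, 0.7 and 0.578 CPM in 8-cell embryos and 1.12, 0.782 and 0.821 CPM in morulae. Endothelial and tract markers summed to 66.3 CPM in 8-cell A and to 27.7 to 33 CPM in the other 5 libraries. PECAM1 (CD31) had 1 read in 8-cell embryos and 320 in morulae (ratio 346.5, counting interval 61.8 to 13730). CDH5 (VE-cadherin), a defining endothelial gene, was at 0.19, 0.2 and 0 CPM in 8-cell embryos and 0.102, 0.88 and 0.117 CPM in morulae and OVGP1 was not called. VWF and TEK fell (-2.65 and -1.78), and PAX8 fell from 99 reads to 2 (ratio 45.7, counting interval 12.3 to 383). Sperm markers summed to 35.4 to 43.5 CPM in every library. TNP1 and ZPBP rose, to 3.37, 4.99 and 3.98 CPM and 3.16, 4.69 and 8.44 CPM, and PRM1 (protamine 1), their defining gene, was at 0 CPM in all 3 libraries in 8-cell embryos and 0, 0.587 and 0.469 CPM in morulae. The 3 rises and 1 fall of leukocyte markers, the 1 rise and 3 falls of endothelial and tract markers and the 2 rises of sperm markers all held without 8-cell A.

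Named genes of at least 20 CPM whose call was lost without 8-cell A were read by library. Among the falls that were lost without it, DCN (decorin), a matrix proteoglycan, was counted at 260.4, 41.6 and 56.8 CPM in 8-cell embryos and 25.2, 17.2 and 34.8 CPM in morulae. Its log2 fold change moved from -2.22 ± 0.62 to -0.93. SRPX2 moved from -1.94 ± 0.69 to -0.48, with 65.3, 9.9 and 11 CPM in 8-cell embryos and 6.02, 10.8 and 5.63 CPM in morulae. RGS4, a regulator of G protein signals, gave 46, 4.1 and 13.3 CPM in 8-cell embryos and 1.74, 5.77 and 3.87 CPM in morulae, with overlap. TIMP2, an inhibitor of metalloproteinases, was at 156, 49.3 and 46.8 CPM in 8-cell embryos and 17.1, 45 and 15.8 CPM in morulae, and SYNE2, a protein of the nuclear envelope, at 475, 123 and 142 CPM in 8-cell embryos and 54.1, 72.2 and 76.5 CPM in morulae. In all of them, 8-cell A was the highest library, which follows largely from choosing falls lost without it. LRRC2, GNB5, SERPINB6, CIRBP and JSP.1, a gene of class I histocompatibility, had log2 fold changes of -2.02, -1.82, -1.77, -1.7 and -2.0 with 6 libraries. Without 8-cell A these were -0.87, -1.17, -0.89, -0.92 and -0.86. JSP.1 shares reads with other class I genes and is uncertain.

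Among the rises lost without 8-cell A, the named ones of at least 20 CPM were small. SLIRP, a regulator of mitochondrial RNA, was counted at 35.9, 89.4 and 65.5 CPM in 8-cell embryos and 160.1, 139.9 and 162 CPM in morulae. UBE2E1, a ubiquitin-conjugating enzyme, was at 15.7, 30.9 and 25.8 CPM in 8-cell embryos and 66, 58.6 and 42.1 CPM in morulae, and AKIRIN1 at 89, 101 and 145 CPM in 8-cell embryos and 218, 222 and 296 CPM in morulae. Together with CDH1 and ESRRB, described above, and with PRRG4, GPR171, PMM1, DLL3 and GTF2A1L, these rises had log2 fold changes of 1.13 to 1.27 with 6 libraries and of 0.86 to 1.0 without 8-cell A. In all 10, 8-cell A was the lowest library of its stage, which follows largely from choosing rises lost without it. Adjusted p without that library stayed below 0.05.

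Conversely, some genes were called only without 8-cell A. PLIN3, which coats lipid droplets, was counted at 21.6, 3.9 and 4.14 CPM in 8-cell embryos and 35.7, 44.1 and 17.7 CPM in morulae and had a log2 fold change of 1.72 ± 0.64 (adjusted p = 0.0566), against 3.02 without 8-cell A (adjusted p = 0.000148). PTGR1, RNH1, PHKA1 and AUP1 behaved likewise, with log2 fold changes of 1.5, 1.24, 1.49 and 1.01 over 6 libraries and of 2.87, 2.56, 2.47 and 2.0 without 8-cell A. In the other direction, the oocyte genes KHDC3L (17.4, 33.1 and 68.9 CPM in 8-cell embryos and 26.3, 7.63 and 2.23 CPM in morulae) and OOSP2 (175, 272 and 267 CPM in 8-cell embryos and 143, 57.6 and 7.5 CPM in morulae) were called lower only without 8-cell A. CECR2, CYP26A1, which degrades retinoic acid, and MPP7 had log2 fold changes of -1.98, -1.53 and -1.53 without 8-cell A. In all 5 of these falls, 8-cell A lay below 8-cell B and C, which follows largely from choosing falls gained without it. In total, 153 tested genes had at least 5 CPM in 8-cell A and at least 4 times the level of each other 8-cell library (a level under 1 CPM was taken as 1). Of these, 100 were called lower and none higher in morulae, and 81 were called lower without 8-cell A too. As the genes were picked for a high level in 8-cell A, calls with 6 libraries lean towards falls by that choice. Over all tested genes, 17.4% were called lower with 6 libraries and 17.3% without 8-cell A.

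A further 20 of the named genes kept their call without 8-cell A and lost it without another library, always with the direction unchanged. CDX2 was not called without 8-cell B (log2 fold change 2.1), morula A (2.09) or morula B (2.14). Without 8-cell B, DDX4 (1.68), NF2 (1.08) and SCAP (1.13) lost their calls too, and all 3 also did so without 8-cell C (1.57, 1.19 and 1.17). Without 8-cell C, calls were lost for TFAP2B (-1.99), ZP3 (-1.29), BTG4 (-2.47), AMOTL2 (1.26), CCND3 (1.98), UBE2S (0.88), UHRF1 (-1.37), TET3 (-3.01) and PSMC4 (0.98). Without morula A this was so for NF2 (0.88), SCAP (0.94), MCM5 (1.41), CCND3 (1.92) and MRPL12 (0.94). Leaving out morula B ended the calls of DSC3 (-1.97), GATA3 (1.22), GATA2 (1.58), TFAP2B (-2.19), ZP3 (-1.03), BTG4 (-2.66), DDX4 (1.4), AMOTL2 (1.39), SCAP (1.18), CCND3 (1.86), UBE2S (0.93), UHRF1 (-1.44), TET3 (-2.81) and TDG (-1.3). Leaving out morula C ended those of ZP3 (-1.12), DDX4 (1.25), AMOTL2 (1.32), UHRF1 (-1.47), TET3 (-2.88), TDG (-1.39) and ZPBP (1.54).

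RNA on polysomes gives a second view of the transition, from embryos of the same batches. On sucrose gradients, RNA that carries more ribosomes sediments further, and the heaviest fractions F8 to F10 were summed within each of 2 gradients per stage. With 2 against 2 pools, edgeR's quasi-likelihood test called 0 of 11719 tested genes (0.0%). The unadjusted p was below 0.05 for 1666 of them (14.2%), the likelihood ratio test called 744 and DESeq2 1083, and leaving out 1 pool gave 127 calls (without the morula A pool) to 726 (without the 8-cell B pool), in fits where the lone pool of a stage was assumed to vary like the pools of the other. Pools are therefore given by level and direction only. Of 10456 genes tested in both sets of libraries, 54.3% were higher in the mean of the morula pools. Among the 1402 that were called higher in whole morulae, 88.4% were, and 933 (66.5%) were higher in both morula pools than in both 8-cell pools, against 28.1% of all genes. Among the 1545 that were called lower in whole morulae, 82.8% were lower in the pools and 828 (53.6%) lay below without overlap, against 22.7% of all genes.

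Single genes described above were read in the pools too, some in the order of the whole embryos and some not. POU5F1 was at 41.7 and 125 CPM in the 8-cell pools and 3121 and 1406 CPM in the morula pools, LGALS3 at 0.565 and 6.28 CPM in the 8-cell pools and 864 and 1183 CPM in the morula pools, and PLAC8 at 0.226 and 0.785 CPM in the 8-cell pools and 347 and 148 CPM in the morula pools. CYC1 was at 360.2 and 525 CPM in the 8-cell pools and 2523 and 2854 CPM in the morula pools, and DNMT3A at 13.9 and 3.85 CPM in the 8-cell pools and 37.3 and 94.4 CPM in the morula pools. For these risers the pools lay in the same order as the whole embryos. NANOG was at 148 and 108 CPM in the 8-cell pools and 14 and 8.6 CPM in the morula pools, ISG15 at 421 and 320.5 CPM in the 8-cell pools and 3.74 and 21.5 CPM in the morula pools, and XCL1 at 210.4 and 282 CPM in the 8-cell pools and 0 and 15.7 CPM in the morula pools. PLAT was at 290 and 476 CPM in the 8-cell pools and 0 and 14.5 CPM in the morula pools. SFRP2 was at 0 and 26.1 CPM in the 8-cell pools and 0 and 3.73 CPM in the morula pools. XCL1, PLAT and SFRP2, without a read in whole morulae, thus had reads in a morula pool. LUM was at 123 and 207 CPM in the 8-cell pools and 0 and 13.4 CPM in the morula pools. LDHA was at 122 and 136 CPM in the 8-cell pools and 47.7 and 98.8 CPM in the morula pools, ENO1 at 814 and 1123 CPM in the 8-cell pools and 499.8 and 733 CPM in the morula pools and CDH1 at 263 and 309.5 CPM in the 8-cell pools and 266 and 515 CPM in the morula pools, where the pools overlapped. PKM, which fell in whole embryos, was at 266 and 399 CPM in the 8-cell pools and 372 and 1103 CPM in the morula pools, where the pools overlapped and the mean of the morula pools was the higher one. Among the genes given here, both 8-cell pools lay below each whole 8-cell library for LUM, XCL1, LDHA, LGALS3 and PLAC8. Pools and whole libraries were scaled in separate sets. Whether pools and whole embryos differ in the size of these changes was not tested. The interferon-stimulated genes summed to 4917 and 4594 CPM in the 8-cell pools and to 968 and 1195 CPM in the morula pools. Mesenchymal and matrix genes summed to 2960.3 and 4033 CPM in the 8-cell pools and to 2603 and 2514 CPM in the morula pools, and the cumulus list to 369 and 616.5 CPM against 71.2 and 249 CPM.

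Levels at the other stages, scaled over all 18 whole libraries, place these genes in the course of development. NANOG was at 0 ± 0 CPM in GV oocytes, 0.0345 ± 0.0597 CPM in MII oocytes, 0.0269 ± 0.0466 CPM in 2-cell embryos and 31.4 ± 18.3 CPM in blastocysts (mean ± SD, n = 3 each), which leaves the 8-cell stage as its highest. XCL1 was at 0 ± 0 CPM in GV oocytes, 1.02 ± 0.523 CPM in MII oocytes, 0.645 ± 0.42 CPM in 2-cell embryos and 0.561 ± 0.972 CPM in blastocysts. Its reads were thus almost all from 8-cell embryos. MX1 was at 34.1 ± 21.4 CPM in MII oocytes but at 0.0258 ± 0.0446 CPM in 2-cell embryos and 0.67 ± 0.254 CPM in blastocysts. The interferon-stimulated list as a whole summed to 550 ± 67.45 CPM in GV oocytes and 1332 ± 239 CPM in MII oocytes. Its sum was 436 ± 38.4 CPM in 2-cell embryos, 4904 ± 1737 CPM in 8-cell embryos, 515 ± 59.2 CPM in morulae and 408 ± 44.6 CPM in blastocysts.

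Among the genes that rose, PLAC8 reached 760.4 ± 112 CPM in blastocysts and KRT18 3354 ± 202 CPM, whereas POU5F1 was lower again, at 148 ± 6.88 CPM. The trophectoderm factors GATA3, GATA2 and CDX2 were already counted before the 8-cell stage. In 2-cell embryos they were at 31.38 ± 7.042, 25.68 ± 13.08 and 7.081 ± 3.835 CPM, while HAND1 was at 0.2585 ± 0.193 CPM. On the same scale, morulae were at 8.87, 12 and 7.37 CPM for GATA3, 13.6, 17.7 and 8.49 CPM for GATA2 and 4.15, 3.97 and 1.23 CPM for CDX2. Each 2-cell library thus lay above each morula library for GATA3, while the ranges overlapped for GATA2 and CDX2. LGALS3 was at 486 ± 38.4 CPM in MII oocytes and 155 ± 30.9 CPM in 2-cell embryos. Of the genes that fell, HMGCS1 was at 296 ± 51.2 CPM in GV oocytes, 743 ± 92.1 CPM in MII oocytes, 559 ± 132 CPM in 2-cell embryos and 729 ± 216 CPM in blastocysts, which makes the morula its lowest stage. LDHA was at 3158 ± 127 CPM in GV oocytes and 332 ± 102 CPM in blastocysts, and TPI1 at 35.8 ± 2.73 CPM and 16.2 ± 6.78 CPM. GDF9 was at 3003 ± 623 CPM in GV oocytes, 1629 ± 136 CPM in 2-cell embryos and 6.14 ± 4.88 CPM in blastocysts. The matrix list summed to 177 ± 5.94 CPM in 2-cell embryos and to 5715 ± 573 CPM in blastocysts, and the cumulus list to 516.5 ± 19.6 and 297 ± 48.5 CPM, against 10071 ± 10041 and 5003 ± 5172 CPM in 8-cell embryos. In GV and MII oocytes the matrix list summed to 152 ± 8.61 and 407 ± 44.6 CPM, and the cumulus list to 709 ± 75.8 and 1129 ± 226 CPM. No test was made between these stages.

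**Figure D5:**
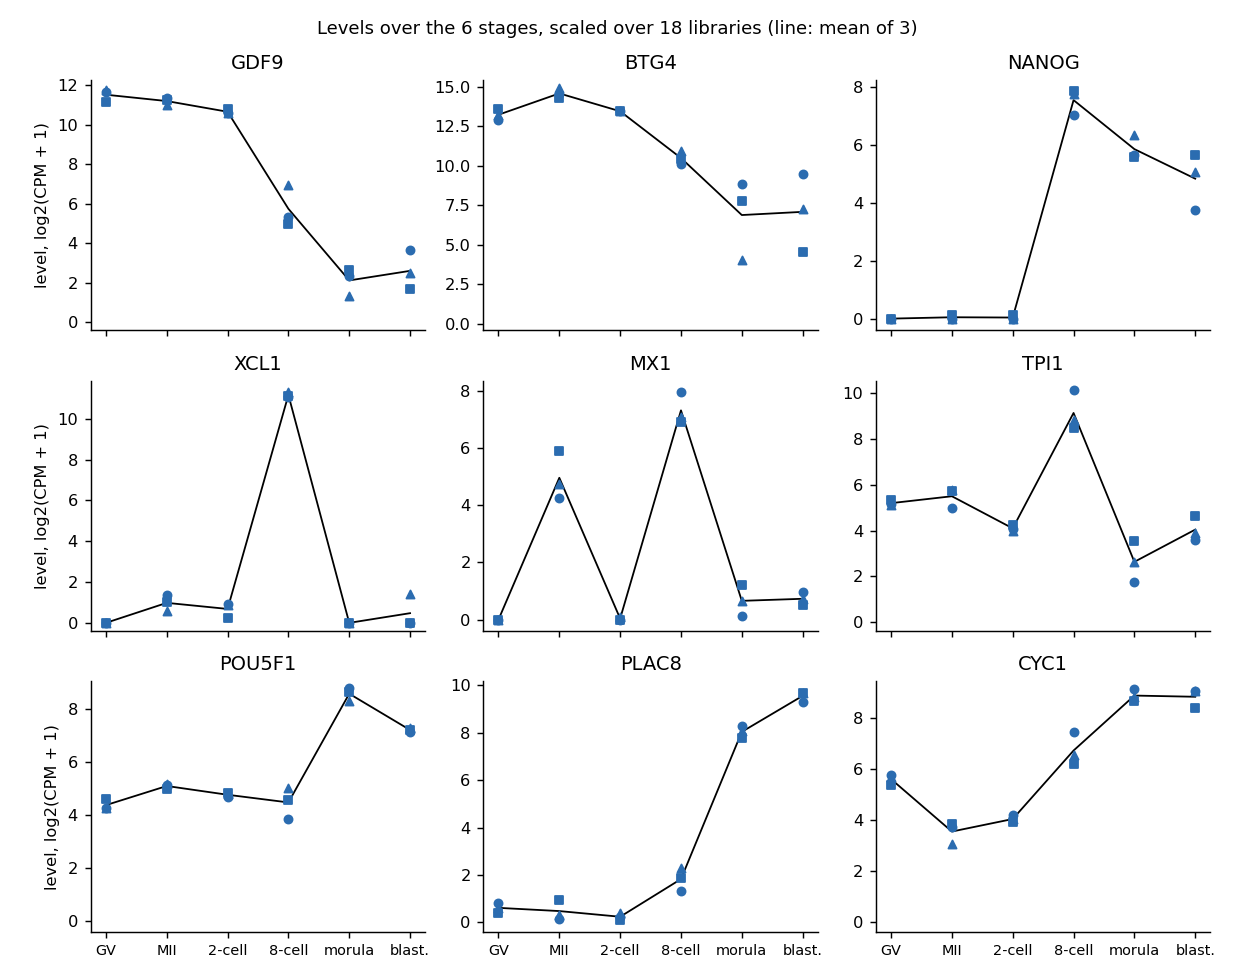
Levels on a log2(CPM + 1) axis over the 6 stages from GV oocytes to blastocysts, 1 panel per gene with its own scale; symbols are the 3 whole libraries of a stage (circle A, square B, triangle C) and the line joins their means. NANOG, XCL1, MX1 and TPI1 are highest in 8-cell embryos, POU5F1 in morulae, and PLAC8 in blastocysts, while GDF9 and BTG4 are highest in oocytes.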

How the data were processed

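Whole-embryo RNA of pools of 20 embryos was amplified with an oligo-dT, full-length kit that does not keep the strand, and sequenced as read pairs. The authors deposited expected counts per gene symbol, estimated with Salmon and not normalized, for 16706 genes in 138 libraries. Of these values, 11.7% were not whole. The genome build is named as UMD3.1 in the submitters' processing notes and as a later assembly in the study's methods, so no coordinates are given, and how reads of near-identical genes were divided is not given in the sources used here. 0 columns were left without a sample.

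Counts were rounded to whole numbers. With edgeR 4.0.16 in R 4.3.3, the 3 8-cell and 3 morula libraries were filtered on low counts (filterByExpr), scaled with TMM factors and compared with the quasi-likelihood F test, with Benjamini-Hochberg adjustment over all tested genes. A gene was called at an adjusted p below 0.05 and a fold change above 2. SE is the standard error of the log2 fold change, and ± stands for it after a fold change. CPM were made with the TMM-scaled totals. For genes with no read in a stage, a floor of 3 counts per library gave the lower bound of the fold. This bound holds for the libraries counted and covers counting error only. For 1 to 3 reads, the ratio of scaled reads has an exact 95% interval, which covers counting error only, as amplified reads without molecular identifiers are not independent molecules. Polysome pools were sums of fractions F8 to F10 of each gradient, tested likewise. The script was tested on simulated counts.

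Named genes were the 10 largest changes per direction among those without overlap between stages and of at least 20 CPM in the higher stage that were called with and without 8-cell A, the key genes of 29 lists with up to 4 called members per direction, and, with the same limit in CPM, up to 10 calls per direction lost without 8-cell A and up to 5 gained. A few of these genes are not reported here. The comparison, its lists and its key genes were chosen with earlier results of these data known. Alternatives were another test (likelihood ratio test, DESeq2 1.42.0), scaling, filter, depth, fold limit, set of libraries, a replicate block and leaving out each library. Figures were drawn with matplotlib 3.10.9.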

Additional observations from a re-analysis of the deposited data

How the results depend on the processing

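Counts of calls over all genes stayed within 1.5 times 1498 higher and 2027 lower under the likelihood ratio test, DESeq2, 2 other scalings, 2 other filters, thinning to the smallest library, no fold limit, all 18 whole libraries in the fit and leaving out each library, where they ranged from 1261 to 1760 and from 1696 to 2075. A fold limit of 4 left 567 and 1177. A model with 30 libraries, including polysome pools and chosen after seeing the data, left 964 and 1133, and the cause was not tested. Without 8-cell A and without the genes of the matrix and cumulus lists, also chosen after seeing the data, 1758 genes were higher and 2039 lower.

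Whether the replicate letters pair libraries across stages is not given in the labels. Deviations from the stage means correlated at 0.05, -0.07 and -0.03 for A, B and C, and at -0.144 to 0.195 between unlike letters. So few values cannot decide whether libraries of a letter are paired. With the letter as replicate block, 1486 genes were higher and 1925 lower. In the polysome pools, the count of 0 calls depended on the setting: the likelihood ratio test called 744 genes, DESeq2 1083, 12 pools in the fit 1073, no filter 387, the replicate block 4, and leaving out 1 pool 127 to 726 (with the lone pool of a stage assumed to vary like the others), whereas fractions F9 and F10 alone and library totals alone called 0. Of the named genes, 24 lost and 13 gained their call without 8-cell A, 25 lost it without morula B and 48 in the model of 30 libraries. No named gene reversed a called direction under any alternative. Depth limits genes of few reads in a stage, such as SOX17 and FGF4. Pools that may share a batch within a stage limit all comparisons.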
